A study of Mus musculus with 12 samples.

Results

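The 10 genes described here encode the transcription factor NRF2 (Nfe2l2), its inhibitor KEAP1 and 8 enzymes or transporters of the antioxidant response that NRF2 is known to drive: Nqo1, Gclm, Gclc, Srxn1, Txnrd1, Slc7a11, Gsr and Prdx1. They were chosen by name, with earlier results of these data known. Each matched exactly 1 Ensembl gene ID among the 49585 IDs of the liver tables and the 55401 IDs of the macrophage tables. Poly(A) RNA of C57BL/6 mice was sequenced in 12 libraries, which fall into 4 groups of 3. Liver was taken from untreated mice or 2 h after lipopolysaccharide (LPS), the bacterial cell wall component sensed by TLR4. The sample titles call the untreated livers WT and the treated ones LPS. The other groups were peritoneal macrophages that all carried a lentivirus for 72 h and all then received LPS for 2 h. The lentivirus encoded either a negative control hairpin (lentivirus-shRNA-NC, here shNC) or a hairpin against the long non-coding RNA Gm26917 (here shGm26917). Every macrophage library was therefore both transduced and LPS-treated, and an LPS effect in macrophages was not analysed here. The labels give neither the age of the mice, the promoter of the hairpin, nor whether replicates came from separate mice or cultures, so the p-values measure the spread between these libraries, which may be technical.

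NRF2 is made continuously and, in unstressed cells, is held by KEAP1, an adaptor that hands it to a cullin-3 ubiquitin ligase for degradation. Electrophiles and oxidants modify cysteines of KEAP1, and NRF2 then accumulates, pairs with a small MAF protein and binds antioxidant response elements in the control regions of its targets. NRF2 activity is therefore set largely at the protein level, which RNA counts do not measure. The targets supply glutathione and thioredoxin: Slc7a11 imports cystine, Gclc and Gclm form the enzyme that starts glutathione synthesis, Gsr and Txnrd1 restore glutathione and thioredoxin with NADPH, Prdx1 and Srxn1 handle peroxide, and Nqo1 reduces quinones.

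The stretches before the transcription starts of 4 of these genes are shown because they hold the sequences that the list is named for, or, for Slc7a11, the sequence of another stress pathway described further on. RefSeq promoter windows (GRCm38.p6, 250 bases before to 50 bases after a start) were found for 8 of the 10 genes (all but Gclc and Gsr). The antioxidant response element was searched as TGACNNNGC on both strands. It lay in at least 1 window of 5 of the 8 genes (Nfe2l2, Gclm, Srxn1, Txnrd1 and Prdx1), against 14.0% of 27025 genes in the same table. The looser core TGANNNNGC, which every TGACNNNGC also fits, lay in windows of 7 of the 8 genes against 45.0% of all genes. The Prdx1 match also contains the AP-1 type sequence TGANTCA, which was found in 2 of the 8 genes (Srxn1 and Prdx1) against 8.97% of all genes. TGATGCAA, the amino acid response element bound by ATF4 with its partners, was found in Slc7a11 alone among the 8, against 1.03% of all genes. TGANTCA and TGATGCAA were chosen after expression values were seen. Each line below gives the 250 bases before the start, 5′ to 3′ on the strand of the gene. Capitals mark a match, in either orientation: of TGACNNNGC in Gclm (chr3:122245307-122245556, plus strand), Prdx1 (chr4:116685349-116685598, plus strand) and the second of the 3 Txnrd1 windows (chr10:82858956-82859205, plus strand), and of TGATGCAA in Slc7a11 (chr3:50443614-50443863, minus strand).
Gclm: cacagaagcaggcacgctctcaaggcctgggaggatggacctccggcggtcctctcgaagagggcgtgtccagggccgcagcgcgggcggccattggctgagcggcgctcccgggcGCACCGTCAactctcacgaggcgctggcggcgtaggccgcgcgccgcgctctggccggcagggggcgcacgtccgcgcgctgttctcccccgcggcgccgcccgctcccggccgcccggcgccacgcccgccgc
Prdx1: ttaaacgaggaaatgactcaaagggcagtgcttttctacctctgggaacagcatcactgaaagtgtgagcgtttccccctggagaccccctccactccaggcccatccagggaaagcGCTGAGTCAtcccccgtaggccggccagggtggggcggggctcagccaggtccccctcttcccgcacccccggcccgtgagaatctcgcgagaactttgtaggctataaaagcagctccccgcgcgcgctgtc
Txnrd1: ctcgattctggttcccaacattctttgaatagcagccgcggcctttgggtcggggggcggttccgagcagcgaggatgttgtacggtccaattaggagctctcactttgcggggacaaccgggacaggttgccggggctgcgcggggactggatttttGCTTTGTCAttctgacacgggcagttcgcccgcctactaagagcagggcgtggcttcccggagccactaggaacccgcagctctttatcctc
Slc7a11: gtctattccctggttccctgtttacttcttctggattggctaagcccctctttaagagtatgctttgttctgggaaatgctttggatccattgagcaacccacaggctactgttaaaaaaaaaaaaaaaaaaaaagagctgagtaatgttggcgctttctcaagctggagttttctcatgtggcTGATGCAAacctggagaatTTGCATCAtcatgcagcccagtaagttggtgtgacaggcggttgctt
A match describes these letters in this window and is not evidence of binding in these samples.

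Library totals ran from 17322800 to 20914000 counts in liver and from 15605300 to 18062900 in macrophages. Levels are given as CPM, counts per 1000000 counts, on library sizes scaled by the TMM method. All 10 genes passed the filter on low counts in both tissues, where 13869 and 12876 genes were tested. The library shNC replicate 2 stood apart: its median correlation with its own group was 0.943, against 0.964 for shNC replicates 1 and 3, and macrophage results are given with and without it. Among the macrophage libraries it had the lowest sum of 8 macrophage and monocyte markers (12800 CPM against 18700 to 27200 CPM in the others), though for Adgre1 (2090 CPM against 996 to 1550 CPM) and Fcgr1 (1110 CPM against 6.70 to 54.1 CPM) of that list it was the highest of the 6. It also had the highest sums of B cell markers (606 CPM against 117 to 289 CPM) and neutrophil markers (647 CPM against 273 to 531 CPM, with Retnlg, Ly6g and Ngp at 0). Hepatocyte markers summed to at most 0.67 CPM in the macrophage libraries and to 65900 CPM or more in every liver library. In liver, the 7 tested neutrophil markers all rose and their list summed to 2.59 to 8.03 CPM without LPS and to 222 to 310 CPM with it. Of these markers, Mmp8, Ngp, Retnlg and Cxcr2 held 0 to 8 counts in each untreated library. They passed the low-count filter through the LPS libraries, so their direction was set by the filter. Erythroid markers also rose there (4 of 5 called, sums of 157 to 273 CPM and of 563 to 1040 CPM). Of 8 macrophage and monocyte markers (sums of 124 to 162 CPM and 341 to 570 CPM), 3 were called higher (Cd14, Itgam and Fcgr1). The LPS sums were mostly Cd14, at 6.92, 4.17 and 6.43 CPM untreated and at 263, 373 and 428 CPM after LPS. The 5 not called had log2 fold changes of -0.87 (Csf1r), -0.51 (Adgre1), -0.48 (Mrc1), 0.06 (Lyz2) and 0.45 (Cd68). The library of LPS replicate 1 had the highest mitochondrial share of counts in liver (9.65% against 5.06% to 6.24%) and the lowest sum of Kupffer cell markers (135 CPM against 236 to 351 CPM). The RNA targeted by the hairpin, Gm26917, was not analysed here in macrophages, so the knockdown itself was not checked.

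In liver, 5 of the 10 genes rose 2 h after LPS (Slc7a11, Gsr, Txnrd1, Nfe2l2 and Keap1), 1 fell (Gclc), and 4 did not pass the test (Gclm, Prdx1, Srxn1 and Nqo1). The largest difference was that of the cystine transporter gene Slc7a11, which was 19.0-fold higher, while Gclc, the catalytic subunit of the enzyme that uses the cysteine made from cystine, was 1.87-fold lower. The share of all 13869 tested genes called in either direction was 45.3%, with 23.3% higher and 22.1% lower, so a call was common in this comparison. The 3 LPS libraries lay wholly above the 3 untreated ones for 6 members and wholly below for 2, where 57.8% of all tested genes had groups that did not overlap (29.4% above, 28.4% below). The median log2 fold change of the members was 0.70, and that of all tested genes was -0.06. Calls were made with the quasi-likelihood test of edgeR, at a p under 0.05 after Benjamini-Hochberg adjustment over all genes tested. In bulk tissue, fewer cells of a type and less RNA per cell cannot be told apart.

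The regulator genes rose together with a modest fold. Nfe2l2 (ENSMUSG00000015839, chr2:75675513-75704641, minus strand) stood at 35.9, 34.2 and 42.2 CPM in the untreated livers and at 86.8, 63.9 and 53.9 CPM after LPS. Every LPS library was above every untreated one, though the LPS libraries spread from 53.9 to 86.8 CPM. Its log2 fold change was 0.86 (SE 0.21, adjusted p = 0.0109). Keap1 (ENSMUSG00000003308, chr9:21229730-21239361, minus strand), whose product holds NRF2 back, stood at 34.0, 47.7 and 43.5 CPM untreated and at 75.0, 73.7 and 69.3 CPM after LPS. The LPS values were close to each other and all above the untreated ones, with a log2 fold change of 0.80 (SE 0.18, adjusted p = 0.00739). Keap1 shares 510 exon bases with the antisense gene Gm16754, and the sources used here do not say whether strand was used in counting. Gm16754 itself held 9 to 13 counts untreated and 40 to 69 counts after LPS, against 748 to 1329 for Keap1.

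Supply of glutathione precursors split by step. Slc7a11 (ENSMUSG00000027737, chr3:49892526-50443614, minus strand), the cystine-importing chain of the xCT antiporter, had 5, 6 and 2 counts in the untreated livers and 63, 66 and 62 counts after LPS. In CPM these were 0.228, 0.278 and 0.0868 against 3.95, 3.66 and 3.92. The groups were far apart and the LPS libraries nearly equal, with a log2 fold change of 4.25 (SE 0.42, adjusted p = 0.000109, 95% interval 3.28 to 5.21). The gene passed the low-count filter through its LPS libraries, and its level per length after LPS was still the lowest of the 10 members. The summed neutrophil markers rose from at most 8.03 CPM to at least 222 CPM in the same libraries, and their part in the rise of Slc7a11 was not tested. Slc3a2, which encodes the heavy chain that pairs with the xCT chain and with other amino acid transporters, stood at 35.1 ± 1.82 CPM (SD, n = 3) untreated and 35.2 ± 4.14 CPM after LPS, a log2 difference of 0.01 with a 95% interval of -0.37 to 0.38 (adjusted p = 0.984).

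Gclc (ENSMUSG00000032350, chr9:77754535-77794485, plus strand) carries the catalytic site of glutamate-cysteine ligase, the rate-limiting enzyme of glutathione synthesis. It stood at 102, 113 and 131 CPM untreated and at 67.4, 57.5 and 60.4 CPM after LPS. The groups did not overlap, and the log2 fold change was -0.90 (SE 0.18, adjusted p = 0.00416). Gclm (ENSMUSG00000028124, chr3:122245557-122270732, plus strand), the modifier subunit of the same enzyme, stood at 137, 173 and 154 CPM untreated and at 100, 126 and 129 CPM after LPS. Its LPS libraries were also all below the untreated ones, but the difference did not pass the test (log2 fold change -0.39, SE 0.20, adjusted p = 0.135). With library totals in place of TMM scaling the Gclm difference passed it (-0.81, adjusted p = 0.00583), in a setting that moved the median of all genes from -0.06 to -0.49 and called 52.3% of them.

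The reductases of glutathione and of cytosolic thioredoxin rose. Gsr (ENSMUSG00000031584, chr8:33652523-33698163, plus strand), glutathione reductase, stood at 68.4, 67.9 and 38.4 CPM untreated and at 110, 124 and 131 CPM after LPS. One untreated library, replicate 3, was well below its group, and all LPS libraries were above all untreated ones (log2 fold change 1.06, SE 0.25, adjusted p = 0.00840, 2.09-fold). Txnrd1 (ENSMUSG00000020250, chr10:82833951-82897712, plus strand), the cytosolic thioredoxin reductase, stood at 98.0, 115 and 106 CPM untreated and at 169, 224 and 222 CPM after LPS. Its groups did not overlap, and it was 1.93-fold higher (log2 fold change 0.95, SE 0.20, adjusted p = 0.00520). The calls for Nfe2l2, Keap1 and Gsr were lost with library totals, at log2 fold changes of 0.44, 0.39 and 0.63 (adjusted p = 0.136, 0.0749 and 0.0640), and Txnrd1, Slc7a11 and Gclc kept theirs.

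The peroxide-handling genes and Nqo1 did not pass the test in liver. Prdx1 (ENSMUSG00000028691, chr4:116685544-116700822, plus strand), a peroxiredoxin that reduces hydrogen peroxide through thioredoxin, stood at 435, 602 and 750 CPM untreated and at 769, 1000 and 943 CPM after LPS. Every LPS library exceeded every untreated one, but the untreated libraries differed widely (log2 fold change 0.60, SE 0.27, adjusted p = 0.0949), and without untreated replicate 3 the difference passed (0.81, adjusted p = 0.0331), in a fit that called 43.8% of all genes. Srxn1 (ENSMUSG00000032802, chr2:152105516-152111376, plus strand), the sulfiredoxin that reactivates overoxidised peroxiredoxins, stood at 50.0, 44.2 and 16.2 CPM untreated and at 29.9, 33.4 and 40.8 CPM after LPS. Untreated replicate 3 was far below the rest and the LPS libraries lay between the untreated extremes, with a 95% interval of -0.92 to 0.75 around a log2 difference of -0.08 (adjusted p = 0.867). Nqo1 (ENSMUSG00000003849, chr8:107388225-107403206, minus strand), the quinone reductase often used as a readout of NRF2, stood at 8.24, 10.6 and 9.25 CPM untreated and at 8.15, 7.71 and 12.5 CPM after LPS. The groups overlapped, and the log2 difference of 0.01 had a 95% interval of -0.54 to 0.56 (adjusted p = 0.969).

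**Figure D1:**
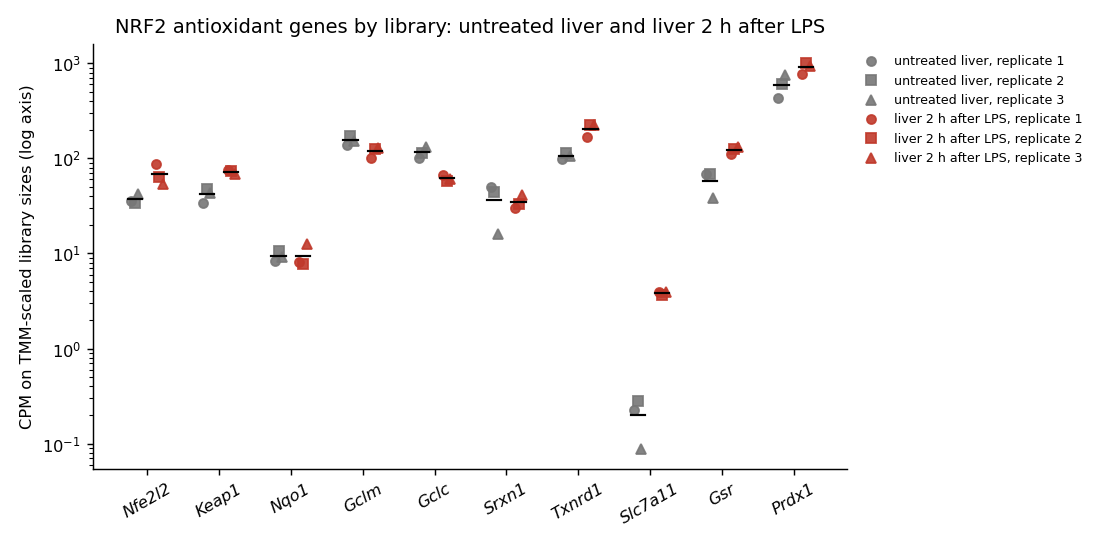
CPM on TMM-scaled library sizes (log axis) of the 10 genes in the 3 untreated and 3 LPS liver libraries, with a bar at each group mean. Slc7a11 lies near 0.2 CPM untreated and near 3.84 CPM after LPS, Gclc falls from 116 to 61.7 CPM, and the groups of Nqo1 and Srxn1 overlap.

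Per length, the order of the genes differed between the tissues. Levels were divided by the exon bases of each gene (GENCODE M21, GRCm38) to give CPM per kilobase, and since the tables of liver and macrophages came from different annotations, no test was made across tissues. In untreated liver Prdx1 was highest at 196 ± 51.8 CPM per kilobase (SD, n = 3), followed by Gclc at 30.7 ± 3.91, Gclm at 24.6 ± 2.88, Gsr at 21.1 ± 6.23, Txnrd1 at 15 ± 1.19, Srxn1 at 13.0 ± 6.41, Nfe2l2 at 9.86 ± 1.12 and Keap1 at 8.89 ± 1.49. From Gclc to Keap1, the libraries of each gene overlapped those of the next. Nqo1 at 6.03 ± 0.768 and Slc7a11 at 0.0142 ± 0.00712 were lowest, and their libraries overlapped with no neighbour. By the longest transcript, untreated Txnrd1 (29.3 CPM per kilobase) stood above Gclm (27.7) and Gsr (21.8), and Nfe2l2 (15.1) above Srxn1 (13.1). After LPS the liver order was led by Prdx1 (298 ± 40.1), Gsr (44.2 ± 3.89) and Txnrd1 (28.9 ± 4.41), whose libraries did not overlap. Divided by the longest transcript, Txnrd1 (56.6 CPM per kilobase) stood above Gsr (45.6), Nfe2l2 (27.5) above Gclm (21.2) and Keap1 (20.1) above Gclc (18). Gclm (18.8 ± 2.52), Nfe2l2 (18.0 ± 4.44), Gclc (16.4 ± 1.35) and Keap1 (15.5 ± 0.638) each overlapped the next, and Srxn1 (12.3 ± 1.96) and Nqo1 (6.09 ± 1.72) followed, Srxn1 overlapping Nfe2l2 but not Keap1. Slc7a11 remained last at 0.276 ± 0.0114 CPM per kilobase.

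In the LPS macrophages with the control hairpin Prdx1 was again highest, at 2170 ± 871 CPM per kilobase. The next values were those of Slc7a11 at 285 ± 172, Txnrd1 at 269 ± 151, Srxn1 at 239 ± 102, Gsr at 168 ± 30.6, Gclm at 120 ± 64.7 and Nfe2l2 at 76.4 ± 19.3, and from Slc7a11 to Nfe2l2 the libraries of each gene overlapped those of the next. Nqo1 at 30.5 ± 8.61, Gclc at 21.7 ± 11.1 and Keap1 at 15.6 ± 3.98 were below them and overlapped in turn. Slc7a11 was thus last of the 10 in both liver groups and second by mean in control macrophages. Divided by the longest transcript instead, Txnrd1 (526 CPM per kilobase) stood above Slc7a11 (430 CPM per kilobase) in the control macrophages. In the shGm26917 macrophages Prdx1 stood at 1810 ± 615 CPM per kilobase, Srxn1 at 165 ± 57.5, Txnrd1 at 157 ± 37.3, Gsr at 143 ± 12, Nfe2l2 at 101 ± 14.3, and Slc7a11 and Gclm both at 100 (SD 30.2 and 33.0). Nqo1 at 64.2 ± 27.6, Gclc at 21.1 ± 4.40 and Keap1 at 13.6 ± 0.829 were lowest. By the longest transcript, Txnrd1 (308 CPM per kilobase) stood above Srxn1 (165) in this group, and Nfe2l2 (155) and Slc7a11 (151) stood above Gsr (147).

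In the macrophage comparison none of the 10 genes passed the edgeR test with all 6 libraries, and the groups overlapped for all 10. At an unadjusted p under 0.05 there were 2, Slc7a11 (lower with shGm26917) and Nqo1 (higher), and the same 2 genes were called by DESeq2 (adjusted p = 0.0143 and 0.0280). Among all 12876 genes tested, edgeR called 23.7% (12.6% higher, 11.1% lower), 38.6% had an unadjusted p under 0.05, 45.9% had groups that did not overlap (24.2% above, 21.7% below), and DESeq2 called 25% of the 15213 genes it tested. The median log2 fold change of the members was -0.25 and that of all tested genes 0.00.

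The libraries numbered 2 were low for most of the members in both groups. The library shNC replicate 2 was the lowest of its group for 9 of the 10 members and the highest for Keap1, where it was the lowest of its group for 40.2% of all tested genes. The library shGm26917 replicate 2 was the lowest of its group for 8 of the 10, against 33.7% of all genes, and shGm26917 replicate 3 was the highest for 9 of the 10, against 32.6%. The highest library of the shNC group was a median of 2.46 times the lowest over the members and 1.47 times over all genes. In the shGm26917 group these ratios were 1.72 and 1.24. In liver the members' ratio was not above that of all genes, with 1.34 against 1.51 in the untreated group and 1.30 against 1.40 in the LPS group. Within the shNC group the ratio was 4.58 for Slc7a11, 3.92 for Txnrd1, 3.58 for Gclm and 3.29 for Gclc, and was 1.44 for Gsr and 1.61 for Keap1.

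The cystine importer showed the largest difference of the members between the hairpins. Slc7a11 stood at 5120, 1210 and 5560 CPM in shNC replicates 1, 2 and 3 and at 1660, 910 and 1620 CPM with shGm26917. The shNC libraries 1 and 3 were far above every shGm26917 library, and shNC replicate 2 lay inside the shGm26917 range. The log2 fold change was -1.51 (SE 0.57, adjusted p = 0.0994, 95% interval -2.86 to -0.15), and without shNC replicate 2 it was -1.95 (SE 0.26, adjusted p = 0.00114). Its partner gene Slc3a2 stood at 3000, 1080 and 3480 CPM in shNC and at 917, 638 and 1020 CPM with shGm26917, also with the library numbered 2 lowest in each group. The Slc3a2 groups did not overlap, and it fell (log2 fold change -1.55, SE 0.44, adjusted p = 0.0470), a call lost without any 1 of 5 libraries (all but shNC replicate 2), with library totals (-1.26, adjusted p = 0.0665) and with upper quartile scaling (-1.48, adjusted p = 0.0549).

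The glutamate-cysteine ligase subunits did not pass the test in macrophages. Gclm stood at 953, 285 and 1020 CPM in shNC and at 634, 421 and 836 CPM with shGm26917, and Gclc at 110, 33.3 and 102 CPM against 84.8, 60.8 and 92.6 CPM. For both genes the library numbered 2 was the lowest of each group. The log2 differences were -0.26 for Gclm (95% interval -1.42 to 0.91, adjusted p = 0.730) and -0.04 for Gclc (95% interval -1.05 to 0.97, adjusted p = 0.958).

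Of the thioredoxin and peroxide genes, Txnrd1 and Srxn1 were called lower only in fits without shNC replicate 2. Txnrd1 stood at 2320, 691 and 2710 CPM in shNC and at 1110, 851 and 1380 CPM with shGm26917. Its shNC replicate 2 was the lowest of the 6 libraries and the other shNC libraries were the highest (log2 fold change -0.77, SE 0.49, adjusted p = 0.285; without shNC replicate 2, -1.19, SE 0.22, adjusted p = 0.00417). Srxn1 stood at 782, 347 and 894 CPM in shNC and at 429, 322 and 641 CPM with shGm26917. Both libraries numbered 2 were below the other 4 (log2 fold change -0.54, SE 0.40, adjusted p = 0.362; without shNC replicate 2, -0.87, SE 0.26, adjusted p = 0.0334). Prdx1 stood at 7890, 3560 and 8360 CPM in shNC and at 4990, 3940 and 7570 CPM with shGm26917 (log2 difference -0.26, 95% interval -1.23 to 0.70, adjusted p = 0.668). Gsr, with 462, 380 and 549 CPM against 382, 368 and 431 CPM, gave -0.24 (95% interval -0.65 to 0.18, adjusted p = 0.354). Neither of these last 2 genes was called in any fit that left out a library.

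The quinone reductase gene Nqo1 differed in the other direction. It stood at 61.1, 34.4 and 46.4 CPM in shNC and at 118, 50.8 and 130 CPM with shGm26917. Replicates 1 and 3 with shGm26917 were above all shNC libraries, and replicate 2 lay inside the shNC range (log2 fold change 1.08, SE 0.38, adjusted p = 0.0823, 95% interval 0.18 to 1.97). Without shGm26917 replicate 2 it was 1.40 (SE 0.25, adjusted p = 0.0395), in a fit that called 6.35% of all genes (3.62% higher), and without shNC replicate 2 it was 0.88 (adjusted p = 0.0904). With library totals Nqo1 was also called (1.35, adjusted p = 0.0381), where 24.3% of all genes were called higher. Nfe2l2 stood at 314, 208 and 348 CPM in shNC and at 341, 364 and 444 CPM with shGm26917 (log2 difference 0.40, 95% interval -0.13 to 0.93, adjusted p = 0.231). Keap1 stood at 58.6, 94.2 and 66.6 CPM against 60.4, 63.1 and 68.1 CPM (-0.20, 95% interval -0.64 to 0.25, adjusted p = 0.479). The regulator genes thus overlapped between the hairpins, and shNC replicate 2 was the lowest of all 6 libraries for Nfe2l2 and the highest for Keap1.

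Without shNC replicate 2, then, 3 of the 10 members were called, all lower with shGm26917, where 39.6% of 13221 tested genes were called (20.5% higher, 19.1% lower). With both libraries numbered 2 left out, 3 were called: Nqo1 higher (1.21, SE 0.17, adjusted p = 0.00178), and Txnrd1 (-1.01, SE 0.19, adjusted p = 0.00647) and Slc7a11 (-1.70, SE 0.18, adjusted p = 0.00059) lower, where 32.1% of 12959 genes were called (17.3% higher, 14.8% lower). Srxn1 then stood at -0.64 (adjusted p = 0.0543). Both fits were read after the values were seen, the second was added then, and 1 group then holds only 2 libraries, or both do. Some cell type markers were also called between the hairpins with all 6 libraries, where 23.7% of all tested genes were called. The endothelial list held 1 call among 2 tested markers (Cdh5, lower, -2.55, adjusted p = 0.0271). The Kupffer cell list held 1 among 5 (Vsig4, higher, 2.31, adjusted p = 0.0140). The neutrophil list held 1 among 3 (Mmp8, higher, 1.63, adjusted p = 0.0198), and 1 other tested neutrophil marker lay wholly below with shGm26917. Of 8 macrophage and monocyte markers, 3 were called higher (Csf1r 1.32, Cd68 0.81 and Lyz2 1.48), 1 lower (Cd14 -2.19) and 4 were not called. Of the 7 markers of stellate cells, fibroblasts and mesothelium, only 3 were tested and none of these was called, with Lrat at 0. The 7 summed to 22.2 to 27.0 CPM in shNC and to 3.72 to 5.10 CPM with shGm26917. Most of the shNC sum was Pdgfrb in replicates 1 and 3 (19.9 and 24.1 CPM) and Dcn in replicate 2 (23.2 CPM). The part of these cells in the member values was not tested.

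**Figure D2:**
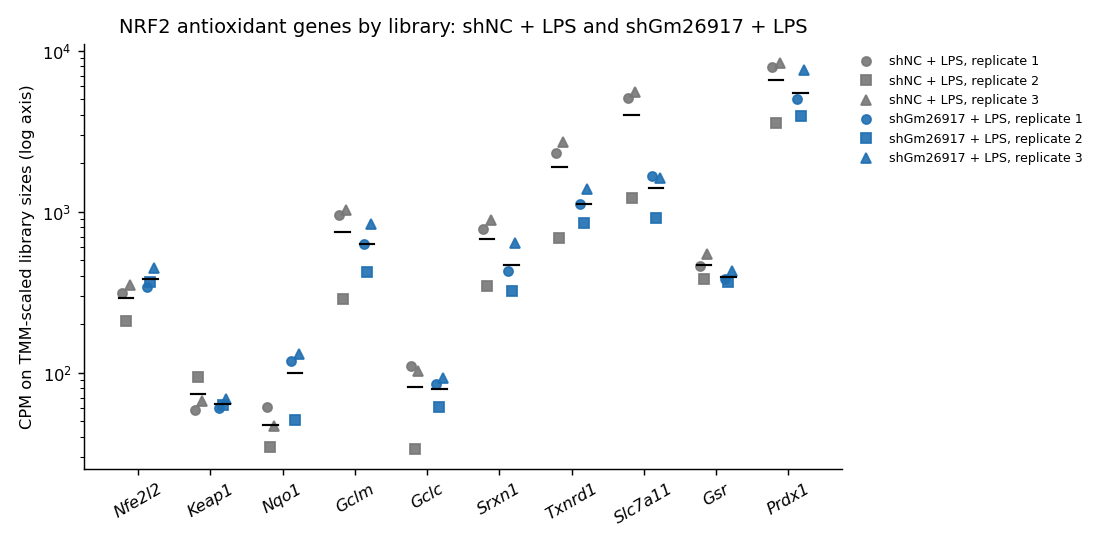
CPM on TMM-scaled library sizes (log axis) of the 10 genes in the 3 shNC and 3 shGm26917 macrophage libraries, by replicate number, with a bar at each group mean. The squares, replicate 2, are the lowest of the shNC group for all genes but Keap1, and Slc7a11 spans 1210 to 5560 CPM within the shNC group.

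**Figure D3:**
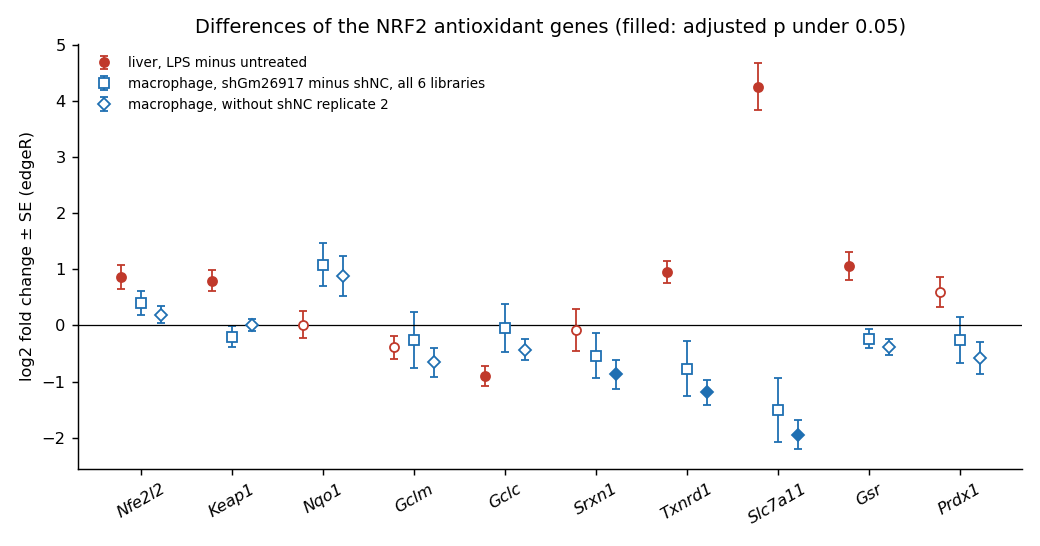
Log2 fold change ± SE from edgeR for the 10 genes in liver (LPS minus untreated, red) and in macrophages (shGm26917 minus shNC, blue), with all 6 macrophage libraries (squares) and without shNC replicate 2 (diamonds), where filled marks have an adjusted p under 0.05. Slc7a11 stands at 4.25 in liver and at -1.51 and -1.95 in macrophages, and no square is filled.

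Other genes that NRF2 is known to drive gave mixed results in liver. Of 31 tested genes, 7 rose, 3 fell and 21 were not called (median log2 fold change -0.09, all tested genes -0.06). Of all 13869 genes tested in liver, 45.3% were called (23.3% higher, 22.1% lower). Hmox1, the heme oxygenase that NRF2 drives and BACH1 represses, rose from 12, 20.2 and 18.1 CPM to 143, 116 and 158 CPM (3.05, SE 0.25, adjusted p = 3.63e-05). Abcc1, an exporter of glutathione conjugates, rose from 1.76 ± 0.654 to 11.4 ± 3.72 CPM (2.69, adjusted p = 0.000453), and Txn1, thioredoxin itself, from 153 ± 43.4 to 383 ± 18.8 CPM (1.33, adjusted p = 0.00346). Abcc2, the canalicular exporter of conjugates, fell from 382 ± 95 to 99.0 ± 18.0 CPM (-1.95, adjusted p = 0.00051). The 2 remaining calls named here were weak: Sqstm1, which encodes the KEAP1-binding autophagy receptor p62, rose from 320 ± 99.0 to 611 ± 56.5 CPM (0.93, adjusted p = 0.0222) and lost its call without LPS replicate 1 or 3 and with library totals (0.51, adjusted p = 0.126) or upper quartile scaling (0.71, adjusted p = 0.0606), and G6pdx, a source of NADPH, fell from 6.42 ± 4.72 to 2.31 ± 0.402 CPM (-1.47, adjusted p = 0.0352) and lost its call without untreated replicate 3 or any LPS library. The count of 10 calls in this list was 6 without LPS replicate 1 or without LPS replicate 3. These fits called 5389 of 14441 and 4915 of 14520 genes, against 6287 of 13869 with all libraries.

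In macrophages 23.7% of all tested genes were called (12.6% higher, 11.1% lower). Of 28 tested genes of that list, 6 rose with shGm26917, none fell, and 22 were not called (median 0.36, all tested genes 0.00). The 4 largest were enzymes of conjugation and epoxide hydrolysis. Ephx1 rose from 14.0 ± 7.58 to 75.2 ± 34.3 CPM (2.43, adjusted p = 0.0200), Gstm1 from 72.9 ± 26.8 to 230 ± 66.0 CPM (1.66, adjusted p = 0.0151), Mgst1 from 178 ± 49.3 to 358 ± 25.8 CPM (1.01, adjusted p = 0.0184) and Gstp1 from 14.7 ± 3.82 to 27.9 ± 5.81 CPM (0.92, adjusted p = 0.0352). For these 4 genes every shGm26917 library was above every shNC library. The calls were nonetheless lost without 1 library: those of Ephx1 and Gstm1 without shNC replicate 3 or shGm26917 replicate 2 or 3 (adjusted p from 0.0553 to 0.0717), and those of Mgst1 and Gstp1 without any library but shNC replicate 2 (0.0530 to 0.118). Hmox1 stood at 2050, 621 and 2220 CPM in shNC and at 1240, 1060 and 1430 CPM with shGm26917 (-0.39, adjusted p = 0.562), with shNC replicate 2 lowest as for most members. Sqstm1 (1680 ± 739 to 941 ± 199 CPM, -0.83, adjusted p = 0.144) and Txn1 (765 ± 23.1 to 652 ± 91.3 CPM, -0.23, adjusted p = 0.315) were not called. The number of this list's genes called was 3 without shNC replicate 1, 0 without shNC replicate 3, 2, 0 and 0 without shGm26917 replicates 1, 2 and 3, and 11 (7 higher, 4 lower) without shNC replicate 2. In the same order, these fits called 2129 of 13299, 1679 of 13289, 1341 of 13268, 839 of 13218, 978 of 13244 and 5236 of 13221 genes. At an unadjusted p under 0.05 the 3 fits with 0 calls by edgeR held 6 or 7 genes of the list. Over all genes these fits held 4265 of 13289, 3809 of 13218 and 3955 of 13244 at that threshold.

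Of 18 tested genes that regulate NRF2 or share its binding sites, 7 rose in liver, 5 fell and 6 were not called (median 0.01), where 45.3% of all tested genes were called. The small MAF genes Mafk and Maff, whose products pair with NRF2 or with BACH1, rose from 22.1 ± 3.54 to 135 ± 17.1 CPM (2.61, adjusted p = 2.88e-05) and from 6.58 ± 6.14 to 44.1 ± 5.82 CPM (2.74, adjusted p = 0.00561, and 3.83 without untreated replicate 3). Acod1, whose product itaconate modifies KEAP1, rose from 0.105 ± 0.0952 to 70.2 ± 16.1 CPM (9.30, adjusted p = 5.4e-06), on 0, 4 and 3 counts in the untreated libraries. Acod1 passed the low-count filter through the LPS libraries, so its direction was set by the filter. Brca1, whose product binds NRF2, fell from 2.88 ± 1.16 to 0.537 ± 0.117 CPM (-2.40, adjusted p = 0.00236). In macrophages none of 19 tested genes rose, 5 fell and 14 were not called (median -0.41), a share of calls near the 23.7% of all tested genes. Acod1 fell from 2980, 2660 and 3410 CPM in shNC to 364, 323 and 434 CPM with shGm26917 (-3.01, SE 0.21, adjusted p = 0.00233). Acod1 was called without any 1 library, and its shNC replicate 2 was close to the other 2. Maff fell from 68.0 ± 28.9 to 22.8 ± 6.19 CPM (-1.57, adjusted p = 0.0252), Mafk from 54.8 ± 16.6 to 30.8 ± 4.35 CPM (-0.83, adjusted p = 0.0475), and Cdkn1a, whose product p21 binds NRF2, from 245 ± 88.7 to 106 ± 22.7 CPM (-1.20, adjusted p = 0.0278). The calls of Maff, Mafk and Cdkn1a were lost without shNC replicate 3 or any shGm26917 library, and that of Maff also without shNC replicate 1 (adjusted p from 0.0524 to 0.160). Mafk also lost its call with library totals (-0.53, adjusted p = 0.107) and with upper quartile scaling (-0.75, adjusted p = 0.0582). The count of 5 was 11 without shNC replicate 2, 4 without shNC replicate 1, and 1 without any one of the other 4 libraries. Of all genes, 5236 were called without shNC replicate 2, 2129 without shNC replicate 1 and 839 to 1679 without the others.

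The rest of the glutathione and thioredoxin system was mostly not called in liver, where 3 of 27 tested genes rose, 2 fell and 22 were not called (median 0.20). Of all genes tested in liver, 45.3% were called. The glutathione peroxidases Gpx1 and Gpx4 rose, from 1260 ± 269 to 2580 ± 130 CPM (1.03, adjusted p = 0.0117) and from 180 ± 35.3 to 364 ± 91.0 CPM (1.02, adjusted p = 0.0119). Txnip, which encodes an inhibitor of thioredoxin, fell from 171 ± 94.5 to 22.8 ± 9.29 CPM (-2.91, adjusted p = 0.002), and Txnrd3, a testis-enriched thioredoxin reductase, from 5.68 ± 2.16 to 2.60 ± 0.735 CPM (-1.13, adjusted p = 0.0364). Without LPS replicate 2 Gpx1 had an adjusted p of 0.0552, with library totals Gpx4 stood at 0.61 (adjusted p = 0.0649), and Txnrd3 was called in no fit that left out a library except that without untreated replicate 1 (otherwise 0.0644 to 0.110). The count of 5 fell to 2 without LPS replicate 2 and to 3 without LPS replicate 3. These fits called 4865 of 14405 and 4915 of 14520 genes, against 6287 of 13869 with all libraries. In macrophages 7 of 25 tested genes rose, 3 fell and 15 were not called (median 0.52), where 23.7% of all tested genes were called. Gpx1 rose from 83.1 ± 24.0 to 419 ± 40.9 CPM with shGm26917 (2.33, SE 0.24, adjusted p = 0.00347) and was called without any 1 library. Msrb1, a methionine sulfoxide reductase, rose from 72.4 ± 30.6 to 213 ± 12 CPM (1.55, adjusted p = 0.0130), a call lost without shGm26917 replicate 2 or 3 (0.0561 and 0.0508). Glrx, a glutaredoxin, fell from 173, 745 and 175 CPM to 89.8, 55.9 and 49.2 CPM (-2.49, adjusted p = 0.0342), with shNC replicate 2 far above the others. Without that library Glrx stood at -1.43 (adjusted p = 0.00246), and without any 1 shGm26917 library it was not called (0.0785 to 0.125). Txnip stood at 143 ± 53.4 and 177 ± 5.39 CPM (0.31, adjusted p = 0.402). The count of 10 was 16 without shNC replicate 2, 7 and 5 without shNC replicates 1 and 3, and 6, 3 and 2 without shGm26917 replicates 1, 2 and 3. In the same order, these fits called 5236, 2129, 1679, 1341, 839 and 978 of all genes.

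Slc7a11 is also a target of ATF4, the transcription factor of the amino acid response, and the other genes of that response were read in both comparisons. Their list, like the others, was chosen with earlier results of these data known. In liver 5 of 13 tested genes rose, 2 fell and 6 were not called (median 0.47). Of all genes tested there, 45.3% were called. Atf3 rose from 1.31 ± 0.690 to 177 ± 26.7 CPM (7.07, adjusted p = 6.52e-06) and the arginine transporter gene Slc7a1 from 1.25 ± 0.338 to 7.32 ± 2.58 CPM (2.55, adjusted p = 0.000589). Sesn2, a stress-induced inhibitor of mTORC1, fell from 15.7 ± 7.51 to 1.52 ± 0.702 CPM (-3.37, adjusted p = 0.000607). Asns, asparagine synthetase, rose from 0.683, 0.556 and 0.217 CPM to 9.53, 1.61 and 1.01 CPM (3.05, adjusted p = 0.0204), and stood at 1.45 (adjusted p = 0.0760) without LPS replicate 1, and at 3.12 (adjusted p = 0.0581) without untreated replicate 2.

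In macrophages 11 of 13 tested genes of the ATF4 list fell with shGm26917, none rose and 2 were not called, with a median of -1.47 against 0.00 for all tested genes. Of all tested genes, 11.1% were called lower and 12.6% higher. Ddit4, a stress-induced inhibitor of mTORC1, fell from 24.9, 26.6 and 22.8 CPM to 4.73, 3.50 and 5.44 CPM (-2.44, SE 0.20, adjusted p = 0.00233) and was called without any 1 library. Asns stood at 99.6, 22.0 and 138 CPM in shNC and at 16.8, 16.8 and 19.4 CPM with shGm26917 (-2.29, SE 0.60, adjusted p = 0.0357). Its shNC replicate 2 was low, as for Slc7a11 and Slc3a2, but above all shGm26917 libraries. Chac1, a glutathione-degrading enzyme, fell from 7.34 ± 3.59 to 1.82 ± 0.406 CPM (-2.0, adjusted p = 0.0213), and Cth, which makes cysteine from cystathionine, from 5.87 ± 4.38 to 0.858 ± 0.187 CPM (-2.76, adjusted p = 0.0440, groups overlapping). The calls of Asns, Chac1 and Cth were lost without any library but shNC replicate 2 (adjusted p from 0.0533 to 0.146). The count of 11 was 12 without shNC replicate 2, 3 without shNC replicate 1 or 3, and 1, 1 and 2 without shGm26917 replicates 1, 2 and 3, and at an unadjusted p under 0.05 each of these fits held 11 or 12 genes. In the same order, these fits called 5236, 2129, 1679, 1341, 839 and 978 of all genes, against 3049 with all 6 libraries. The genes at an unadjusted p under 0.05 in these fits numbered 6521, 4491, 4265, 4050, 3809 and 3955, of 13218 to 13299 tested.

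**Figure D4:**
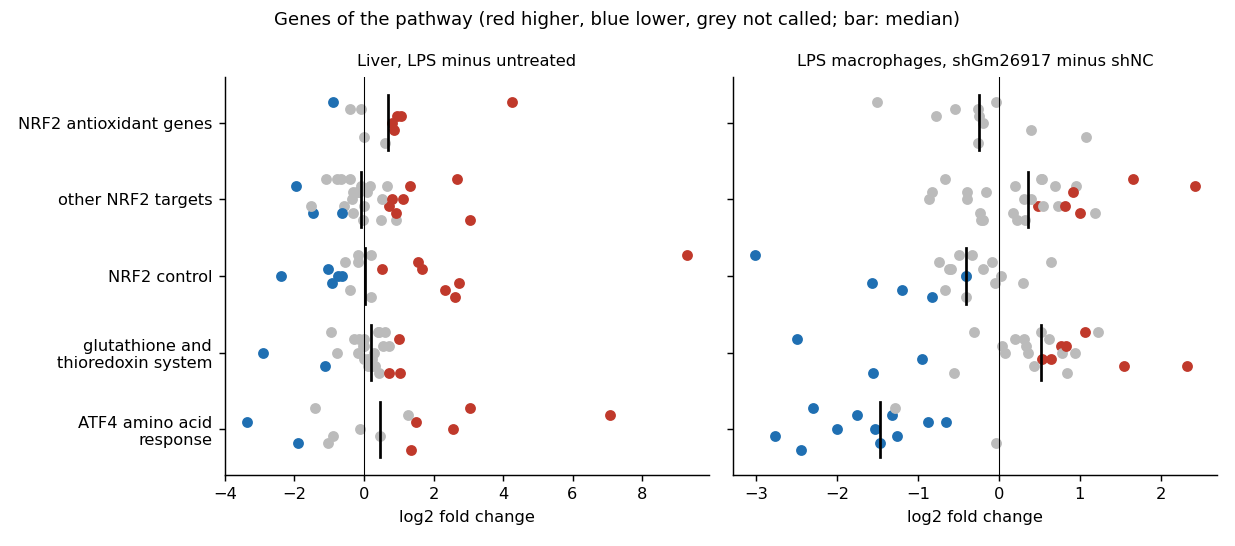
Log2 fold change of each tested gene of the 10 members and of the 4 lists of related genes, in liver (left, LPS minus untreated) and in LPS macrophages (right, shGm26917 minus shNC), with red higher, blue lower, grey not called and a bar at the median. The ATF4 list lies at a median of -1.47 in macrophages and 0.47 in liver, and the members at -0.25 and 0.70.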

How the data were processed

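Poly(A) RNA-seq of 12 mouse libraries was used. The authors deposited 1 table of raw counts per library, with whole reads assigned to Ensembl gene IDs and no normalization, per the file headers. Per the submitters' processing notes, the tools were STAR and featureCounts 1.6.3 on mm10. Settings, annotation release and use of strand are not given in the sources. The headers of the macrophage tables carry the word combined, whose meaning is not given either. Genes were kept with filterByExpr, scaled by TMM and tested per tissue in edgeR 4.0.16 (R 4.3.3, quasi-likelihood F test, 2-sided, group as the sole factor, Benjamini-Hochberg over all genes tested, called at 0.05). The SE is |log2 fold change| over the root of F. On simulated counts (200 genes changed), this recovered 25% (liver) and 45% (macrophages) of changes of 1 on the log2 scale and 96% and 89% of changes of 2. In the data 45.3% and 23.7% of tested genes were called, and the Benjamini-Hochberg cutoff depends on the share of changed genes. The simulated percentages therefore do not measure recovery in the data. Alternatives were DESeq2 1.42.0, other scalings and filters, a replicate block and fits without single libraries. The members and lists were chosen with earlier results of these data known. Named genes are the members, up to 4 called genes per list and comparison with the largest log2 fold change, and Hmox1, Txn1, Sqstm1, Txnip and Slc3a2. Lists were described by counts and medians, with no set test. Intervals are 95% and cover the spread between libraries.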

Additional observations from a re-analysis of the deposited data

How the results depend on the processing

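In liver no member's call was lost by leaving out a library, and the number of members called stayed within 4 (library totals) and 7. The differences near 0 changed sign: Nqo1 (0.01) was -0.41 with library totals, -0.20 with upper quartile scaling, -0.01 with the replicate block and -0.23 to 0.15 without single libraries; Srxn1 (-0.08) was 0.04 with the replicate block and -0.44 to 0.19 without single libraries; and Slc3a2 (0.01) was -0.43, -0.21, 0.00 with the filter of 1 CPM in 3 libraries, 0.00 with the block, and -0.06 to 0.11. Library totals moved the median of all genes in liver from -0.06 to -0.49 and the share of calls that were higher from 51.3% to 26.8% (upper quartile -0.27 and 37.5%), and in macrophages from 0.00 to 0.29 and from 53.1% to 79.8% (0.08 and 61.5%). Without single libraries the counts were 6 to 14 for the other NRF2 targets (10) and 2 to 5 for the glutathione and thioredoxin system (5). Over all genes the counts ran from 4865 to 6227 without single libraries (6287 with all libraries) and were 7248 with library totals.

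In macrophages 3049 genes were called, and 839 to 5236 without single libraries. Library totals called 3929 of 12876 genes, upper quartile scaling 3053 and the replicate block 2594. DESeq2 called 3806 of 15213, and the fit without the libraries numbered 2 called 4159 of 12959. The number of members called (0) was 1 with library totals, 2 with DESeq2, 1 with the replicate block (Nqo1, 1.00, adjusted p = 0.0287), 3 without the libraries numbered 2 and 0 to 3 without single libraries; the cause was not tested. The other NRF2 targets (6) had 12 called without the libraries numbered 2 and 0 to 11 without single libraries. The NRF2 control list (5) had 3 with upper quartile scaling, 3 with the block, 9 without the libraries numbered 2 and 1 to 11; the glutathione and thioredoxin system (10) had 2 to 16; and the ATF4 list (11) had 6 with the block and 1 to 12. Signs changed for Keap1 (-0.20; 0.10 with library totals, 0.04 without the libraries numbered 2, -0.35 to 0.01 without single libraries), Gclm (-0.26; 0.03 with totals, -0.66 to 0.02), Gclc (-0.04; 0.24 with totals, 0.03 with upper quartile scaling, 0.11 with the block, -0.43 to 0.21), Gsr (-0.24; 0.06 with totals), Prdx1 (-0.26; 0.02 with totals) and Txn1 (-0.23; 0.06 with totals). Whether equal replicate numbers pair the samples was left unsettled. Deviations of log2 CPM from the group mean correlated between same-numbered libraries at -0.077 to 0.118 in liver and -0.041 to 0.24 in macrophages. In liver 2 and in macrophages 4 of the 6 libraries correlated best with their own number. In macrophages the highest correlations of all pairs were those of the replicates numbered 2 (0.24) and 3 (0.178), while those numbered 1 gave -0.041. Of the called genes named beside the members, the replicate block ended the calls of G6pdx in liver (-1.25, adjusted p = 0.0545) and of Gstp1, Mafk, Glrx, Cth and Asns in macrophages (0.93, -0.80, -2.15, -2.42 and -1.98, adjusted p = 0.0683, 0.0810, 0.0536, 0.0517 and 0.0535).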

Other observations

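Txnrd1, Gpx1, Gpx4 and Msrb1 encode selenoproteins, enzymes that carry selenocysteine, so the levels of 24 genes for selenoproteins and for selenium handling were read as a description, in a list drawn up after values were seen. In macrophages 19 were tested, 5 were called higher with shGm26917 and 2 lower, with a median log2 fold change of 0.28 against 0.00 for all tested genes. Of all tested genes, 23.7% were called (12.6% higher, 11.1% lower). The genes called higher were Gpx1, Gpx4, Txnrd2, Msrb1 and Selenop. Selenop, which encodes the secreted selenium carrier, stood at 34.0, 40.0 and 28.9 CPM in shNC and at 87.4, 146 and 82.6 CPM with shGm26917 (1.62, adjusted p = 0.00844), and the groups did not overlap. Gpx4, Selenop and Selenos were called without any 1 library. Selenos, an endoplasmic reticulum membrane selenoprotein gene, was the lower of those that fell, from 143 ± 42.4 to 48.5 ± 4.30 CPM (-1.56, adjusted p = 0.00642), and Selenon fell from 80.9 ± 12 to 50.8 ± 6.83 CPM (-0.67, adjusted p = 0.0266), a call lost without shNC replicate 3 or any shGm26917 library (0.0621 to 0.0946). Among the thioredoxin reductases, Txnrd2, the mitochondrial form, rose from 14.7 ± 2.29 to 26.2 ± 2.69 CPM (0.83, adjusted p = 0.0150; 0.0501 to 0.0699 without shNC replicate 3 or shGm26917 replicate 2 or 3), and Txnrd1 was not called. In liver 4 of 21 tested genes of that list rose and 5 fell (median -0.02), a share of calls near the 45.3% of all tested genes. Among those that fell was Sephs2, which makes the selenium donor. It stood at 455, 779 and 490 CPM untreated and 191, 183 and 217 CPM after LPS (-1.54, adjusted p = 0.00189).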
